A study of Mus musculus with 12 samples.

Results

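The Fos, Jun and Egr genes encode transcription factors, many called immediate early because serum and growth factors induce them without new protein synthesis. They were followed here in mouse embryonic fibroblasts (MEFs) that lack the tumour suppressor TSC2. The members were the 10 genes Fos, Fosb, Fosl1, Fosl2, Jun, Junb, Jund, Egr1, Egr2 and Egr3, taken by their symbols from the annotation of the array. They were read by 16 probe sets, each with one of these symbols and no other, out of 45037 probe sets tested, and they were 10 of the 18193 genes with such a probe set. A probe set is a group of short probes read together as 1 value. Of the members, 6 genes had 2 probe sets and 4 had 1, and no filter on low values was used, so that all 16 entered each test.

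The study asked how the kinase mTOR acts on mitochondrial genes through YY1 and the coactivator PGC-1alpha, and it held 12 arrays in 4 groups of 3 replicates. All 4 groups were TSC2-/- MEFs grown in DMEM with 10% CCS, so that the TSC2 deletion was shared by treated and control cells, and no cells with TSC2 were analysed here. In the first experiment, cells received vehicle (DMSO) or 20 nM rapamycin, an inhibitor of mTOR complex 1, in changed medium for 14 h. In the second, confluent cells were infected for 10 h with an adenovirus expressing GFP or PGC-1alpha, the medium was changed, and RNA was taken 14 h later. The labels do not say whether the MEFs were 1 clone. Both readings were thus taken 14 h after a change of medium, and the first minutes and hours, when these genes are usually induced, were not measured.

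As background, Fos and Jun proteins are basic leucine zipper factors that pair to form AP-1, which binds the AP-1 motif or the related cyclic AMP response element (CRE). Jun proteins can pair with each other, whereas Fos proteins need a Jun partner, and the balance between members such as Jun and Junb or Fosl1 and Fosl2 changes what AP-1 does to its targets. Egr proteins are zinc finger factors that bind a GC-rich motif and are held back by the corepressors Nab1 and Nab2. In fibroblasts, both families are known for their induction by serum through the ERK kinases, the factor SRF with its Elk partners, and CREB. TSC2 restrains mTOR complex 1, so the complex is held active in cells without it.

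Promoter sequences from RefSeq (GRCm38.p6) were on hand for 7 of the 10 genes, Fos, Fosb, Fosl2, Jun, Junb, Jund and Egr2. They are shown for the 4 of these that changed with rapamycin, as the 250 bases before an annotated start of transcription, 5′ to 3′ on the strand of the gene, with motif matches in capitals. The Jun window (chr4:95052223-95052472, minus strand), the Junb window (chr8:84978749-84978998, minus strand), the Fosl2 window (chr5:32136222-32136471, plus strand) and 1 of the 5 windows of Egr2 (chr10:67537619-67537868, plus strand), the first of the 3 overlapping windows that hold the same CArG box match, read as follows.
Jun: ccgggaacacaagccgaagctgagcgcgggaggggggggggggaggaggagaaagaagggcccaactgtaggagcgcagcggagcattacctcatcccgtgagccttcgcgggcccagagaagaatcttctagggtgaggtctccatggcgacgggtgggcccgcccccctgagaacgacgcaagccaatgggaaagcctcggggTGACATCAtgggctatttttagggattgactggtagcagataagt
Junb: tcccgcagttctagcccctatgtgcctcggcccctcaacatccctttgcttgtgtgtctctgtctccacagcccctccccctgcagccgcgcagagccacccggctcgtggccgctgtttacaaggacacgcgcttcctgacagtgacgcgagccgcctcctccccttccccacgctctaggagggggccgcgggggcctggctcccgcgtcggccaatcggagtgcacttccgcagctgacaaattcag
Fosl2: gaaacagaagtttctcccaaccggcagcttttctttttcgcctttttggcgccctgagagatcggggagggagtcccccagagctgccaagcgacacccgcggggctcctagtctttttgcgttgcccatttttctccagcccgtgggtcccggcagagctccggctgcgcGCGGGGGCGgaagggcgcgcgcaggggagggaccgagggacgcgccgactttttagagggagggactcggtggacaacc
Egr2: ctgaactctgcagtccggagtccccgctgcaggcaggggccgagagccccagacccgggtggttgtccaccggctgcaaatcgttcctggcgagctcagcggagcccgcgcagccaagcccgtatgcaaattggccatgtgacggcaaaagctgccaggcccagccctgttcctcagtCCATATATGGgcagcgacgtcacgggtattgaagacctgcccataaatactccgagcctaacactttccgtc
The motifs searched on both strands were the CRE (TGACGTCA), the AP-1 motif (TGANTCA), the CArG box bound by SRF, the Egr motif (GCGNGGGCG), the TATA motif (TATAAA) and the CRE with any middle base (TGACNTCA), which includes the exact CRE and was added after the windows had been read. Jun, whose promoter is known to bind Jun and ATF proteins, held TGACATCA at 45 to 38 bases before the start. Fosl2 held an Egr motif, GCGGGGGCG, at 79 to 71 bases before it, and Egr2 held the CArG box CCATATATGG at 72 to 63 bases before it. Matches were not particular to genes that changed with rapamycin. Fosb, which was not among those, held the same GCGGGGGCG at 50 to 42 bases before its start. Fos, not among them either, held the TATA motif at 33 to 28 bases before its start. None of these motifs matched in the Junb window, which says only that those letters are not in it. Over all 32851 mouse promoter windows of this length, 1.55% held the exact CRE, 7.49% the CRE with any middle base, 6.75% the AP-1 motif, 1.47% a CArG box, 4.7% the Egr motif and 12.4% the TATA motif. A match is a description of the letters and not evidence of binding in these cells.

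The deposited values are RMA intensities on a linear scale, a measure of the brightness of a probe set after background correction and normalization. Each experiment was normalized by its authors on its own, so that levels are compared within an experiment only. Changes are log2 differences of treated minus control arrays with a standard error (SE), from limma, and a probe set was called where its Benjamini-Hochberg adjusted p over all 45037 probe sets was under 0.05. Where a gene had 2 probe sets, the brighter stood for the gene. Array medians lay between 77.5 and 81.0, and every pair of arrays within a group correlated at 0.997 or more. GFP replicate 3 stood somewhat apart, its log2 differences from the other GFP arrays having an SD over probe sets of 0.155 and 0.167, against 0.1 to 0.142 for all other pairs within a group. All 10 fibroblast marker genes were measured, 7 of them above the 90th percentile of intensity and Fn1 the brightest, whereas the 7 macrophage, 5 endothelial, 6 epithelial and 4 neural markers had no gene above it. Epcam lay just below it, at the 89.9th percentile, with Nes at 85.7 and Krt18 at 85.3. The median percentile was 98.5 for the fibroblast, 44.0 for the macrophage, 23.5 for the endothelial, 56.8 for the epithelial and 61.0 for the neural markers. The summed intensity of the epithelial markers was 1316 to 1382 with vehicle and 1579 to 1639 with rapamycin (3 of 6 raised), and that of the macrophage markers 756.9 to 785.8 and 822.3 to 844.0 (2 of 7 raised). For the neural markers it was 745.8 to 809.8 with vehicle and 695.4 to 696.7 with rapamycin (1 of 4 lowered), and for the fibroblast markers 55450 to 56770 and 57320 to 61600 (4 of 10 raised). The ratio of 3′ to 5′ Gapdh signal, a sign of RNA quality, was 0.84 to 0.861 with vehicle and 0.807 to 0.826 with rapamycin, and 0.865 to 0.879 with GFP and 0.894 to 0.905 with PGC-1alpha. The same ratio for actin overlapped in both experiments. It was 1.291 to 1.329 with vehicle and 1.299 to 1.32 with rapamycin, and 1.256 to 1.315 with GFP and 1.314 to 1.329 with PGC-1alpha. The part of these shifts in the results on the Fos, Jun and Egr genes was not tested. In such bulk RNA, fewer cells of a type and less RNA per cell cannot be told apart.

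Rapamycin split the AP-1 and Egr genes rather than moving them one way. Fosl1 and Jun fell, by 0.92 and 0.51 on the log2 scale, while Junb, Egr1 and Fosl2 rose by 0.46, 0.48 and 0.37 and the dim Egr2 by 0.20. Fos itself, the founding member, was at almost the same level in both groups, and the intervals of Fosb, Jund and Egr3 spanned 0. Of the 16 probe sets, 4 were raised and 4 lowered, or 8 (50%), against 11.5% raised, 14.0% lowered and 25.5% called either way of all probe sets tested. Calls were commoner among brighter probe sets, and most members lay above the median intensity. Without the probe sets below that median, 4247 of all were raised and 5996 lowered, against 5168 and 6301 with them. Of the members, 3 were then raised and 5 lowered, with Fosb, both Egr2 probe sets and the second probe sets of Jund and Egr3 left out by the cut. The shares over all probe sets thus run below those of probe sets as bright as most members. The part of brightness in the member counts was not tested. By gene, 4 of the 10 were raised (Fosl2, Junb, Egr1, Egr2) and 2 lowered (Fosl1, Jun), against 11.3% and 18.0% of the 18193 genes. The members were chosen with earlier results of these data known, so these counts are given as a description. The 3 rapamycin arrays lay wholly above or wholly below the 3 vehicle arrays for 5 and 6 of the 16 probe sets, together 68.8% of them, against 37.9% of all probe sets. The median change of the 10 genes was -0.007 and of all genes -0.015, while the median size of change, sign left out, was 0.287 for the members and 0.093 for all genes.

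**Figure D1:**
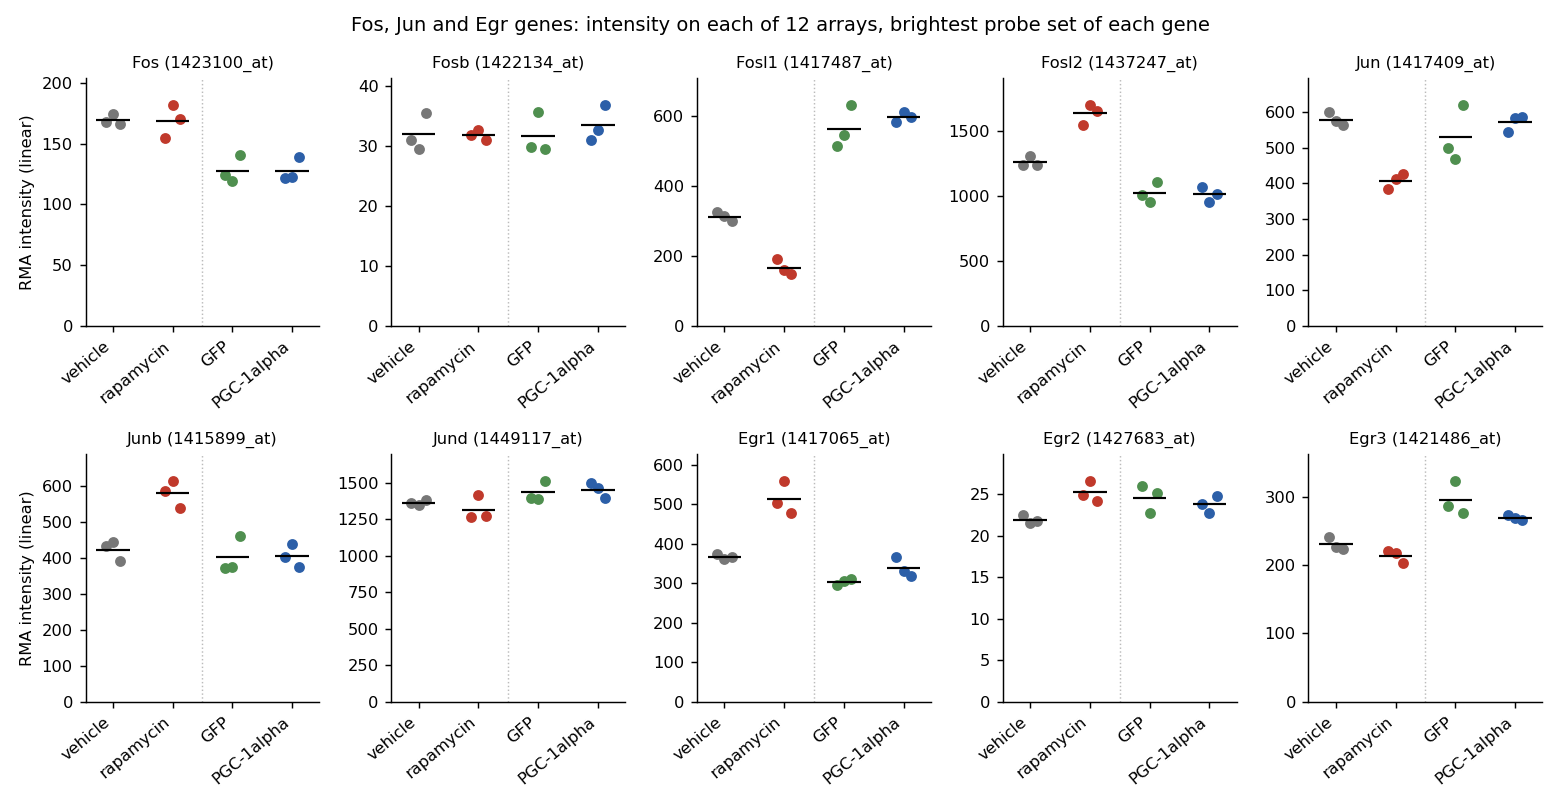
RMA intensity (linear axis, from 0) of the brightest probe set of each of the 10 genes on each of the 12 arrays, with points for arrays and bars for group means; the dotted line parts the experiments, which were normalized separately. Fosl1 and Jun lay lower and Fosl2, Junb, Egr1 and Egr2 higher on every rapamycin array than on any vehicle array, and under scaling to the spike controls the differences in Fosl2 and Egr2 did not pass the threshold.

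Among the Fos family, Fosl1, which encodes Fra-1, an AP-1 subunit induced late after serum and tied to cell migration, had the largest change of the 16 probe sets. Its brighter probe set read 324.9, 313.3 and 300.4 with vehicle and 191.5, 159.2 and 149.1 with rapamycin, so that every rapamycin array lay far below every vehicle array. The mean went from 312.8 ± 12.2 to 166.6 ± 22.1 (SD, n = 3), a fall of 1.89-fold (log2 change -0.92, SE 0.08, adjusted p 3.3e-06). A second Fosl1 probe set read 211.3, 179.0 and 196.4 with vehicle and 111.9, 116.4 and 113.5 with rapamycin. It likewise showed no overlap, and it fell by 1.71-fold (log2 change -0.78, SE 0.06, adjusted p 2.1e-06).

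Fosl2, which encodes Fra-2, the nearest relative of Fra-1, went the other way on its brighter probe set. That probe set was among the brightest of the members and read 1241, 1313 and 1241 with vehicle and 1552, 1704 and 1659 with rapamycin. The groups did not overlap, and the rise was 1.29-fold (log2 change 0.37, SE 0.06, adjusted p 2.7e-04). The dimmer Fosl2 probe set did not share this rise. It read 187.1, 171.3 and 177.3 with vehicle and 156.7, 165.3 and 158.8 with rapamycin, lower on all 3 rapamycin arrays, with a log2 change of -0.16 that missed the threshold (adjusted p 0.060). It passed as a fall without rapamycin replicate 2 (adjusted p 0.046), with a pseudocount of 16 (0.039), without dim probe sets (0.034) and with spike scaling (0.0019), so the probe sets of Fosl2 disagree in direction. With the mean of both probe sets in place of the brighter one, the Fosl2 change was 0.11 with an adjusted p of 0.090, and it was not called.

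Fos, which encodes the archetype c-Fos, read 168.0, 174.8 and 166.1 with vehicle and 154.9, 181.9 and 170.3 with rapamycin. The groups overlapped fully, with a log2 change of -0.01 and a 95% interval from -0.15 to 0.13 (adjusted p 0.950). Fosb, which like Fos carries a strong activation domain, was dim at the 24.5th percentile of intensity and averaged 32.01 ± 3.18 with vehicle and 31.81 ± 0.865 with rapamycin (SD, n = 3). Its interval, from -0.15 to 0.14, likewise spanned 0.

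In the Jun family, Jun, the most potent activator of AP-1 targets among them, and Junb, which often counters it, moved in opposite directions. Jun read 599.0, 573.6 and 562.4 with vehicle and 383.1, 412.1 and 425.1 with rapamycin. No array overlapped, and the mean went from 578.3 ± 18.7 to 406.8 ± 21.5 (SD, n = 3), a fall of 1.42-fold (log2 change -0.51, SE 0.06, adjusted p 2.5e-05). The second Jun probe set was also lower on all rapamycin arrays, at 234.8, 242.7 and 251.4 against 272.2, 264.5 and 279.8 with vehicle. Its fall was small (log2 change -0.16, SE 0.05, adjusted p 0.042), and the call was lost when any 1 of the 6 arrays was left out (adjusted p 0.055 to 0.130).

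Junb read 433.8, 443.6 and 393.1 with vehicle and 587.6, 615.5 and 540.3 with rapamycin. All rapamycin arrays were higher, and the mean went from 423.5 ± 26.8 to 581.1 ± 38.0 (SD, n = 3), a rise of 1.37-fold (log2 change 0.46, SE 0.07, adjusted p 1.7e-04). Jund, the member that is made in resting cells and depends least on serum, was bright and read 1361, 1348 and 1378 with vehicle and 1264, 1412 and 1268 with rapamycin. Its highest array was a rapamycin array, and its log2 change of -0.05 had an interval from -0.18 to 0.07 (adjusted p 0.586). The dim second Jund probe set had a log2 change of -0.10 (adjusted p 0.253).

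In the Egr family, Egr1, the zinc finger factor induced in most cells by serum and stress, read 372.8, 360.7 and 366.4 with vehicle and 503.8, 559.6 and 477.1 with rapamycin. The groups were well apart, and the mean went from 366.6 ± 6.05 to 513.5 ± 42.1 (SD, n = 3), a rise of 1.4-fold (log2 change 0.48, SE 0.06, adjusted p 7.8e-05). Egr2, best known from myelinating cells and lymphocytes, was near the bottom of the intensity range on both probe sets. The brighter Egr2 probe set, at the 15.4th percentile, read 22.52, 21.52 and 21.81 with vehicle and 24.88, 26.67 and 24.20 with rapamycin. It rose by 1.15-fold (log2 change 0.20, SE 0.06, adjusted p 0.018), without overlap. The call was lost without rapamycin replicate 2 (adjusted p 0.053) or vehicle replicate 2 (adjusted p 0.069), and the other Egr2 probe set, with a log2 change of 0.18, missed the threshold (adjusted p 0.074) but passed it without rapamycin replicate 2 (adjusted p 0.048) and with an intensity trend in the variance (adjusted p 0.043), where 5 member probe sets were raised.

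Egr3, a close relative known in muscle spindles and lymphocytes, read 241.9, 226.3 and 223.2 with vehicle and 220.9, 217.2 and 203.4 with rapamycin. All 3 rapamycin arrays were lower, but by little, with a log2 change of -0.11 and an interval from -0.23 to 0.02 (adjusted p 0.214). The second Egr3 probe set lay at the 2.9th percentile, where a change can hardly be read, and its log2 change was 0.05 (adjusted p 0.681).

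The size and, for some members, the call of these changes rested on how arrays were scaled. Arrays were also scaled to 18 spiked control probe sets, the Bio and Cre hybridization controls of the array, which do not measure the RNA taken from the cells. The median change of all probe sets then moved by -0.19, and 2 member probe sets were raised and 8 lowered. Over all 45037 probe sets, 1448 were raised and 18556 lowered. Fosl1 and Jun stayed lowered, at -1.11 and -0.70, and Junb and Egr1 stayed raised, at 0.27 (adjusted p 0.017) and 0.29 (adjusted p 0.0076). Under that scaling Fosl2 was at 0.18 (adjusted p 0.074) and Egr2 at 0.01 (adjusted p 0.903), neither called, and both Jund probe sets (-0.24 and -0.29), Egr3 (-0.30) and the dimmer Fosl2 probe set (-0.34) were lowered. Of all calls in the comparison, 45.1% were rises in the main setting and 7.24% with spike scaling. The spike probe sets themselves were brighter on the rapamycin arrays, with mean log2 intensities of 10.625, 10.829 and 10.705 against 10.596, 10.499 and 10.497 with vehicle.

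**Figure D2:**
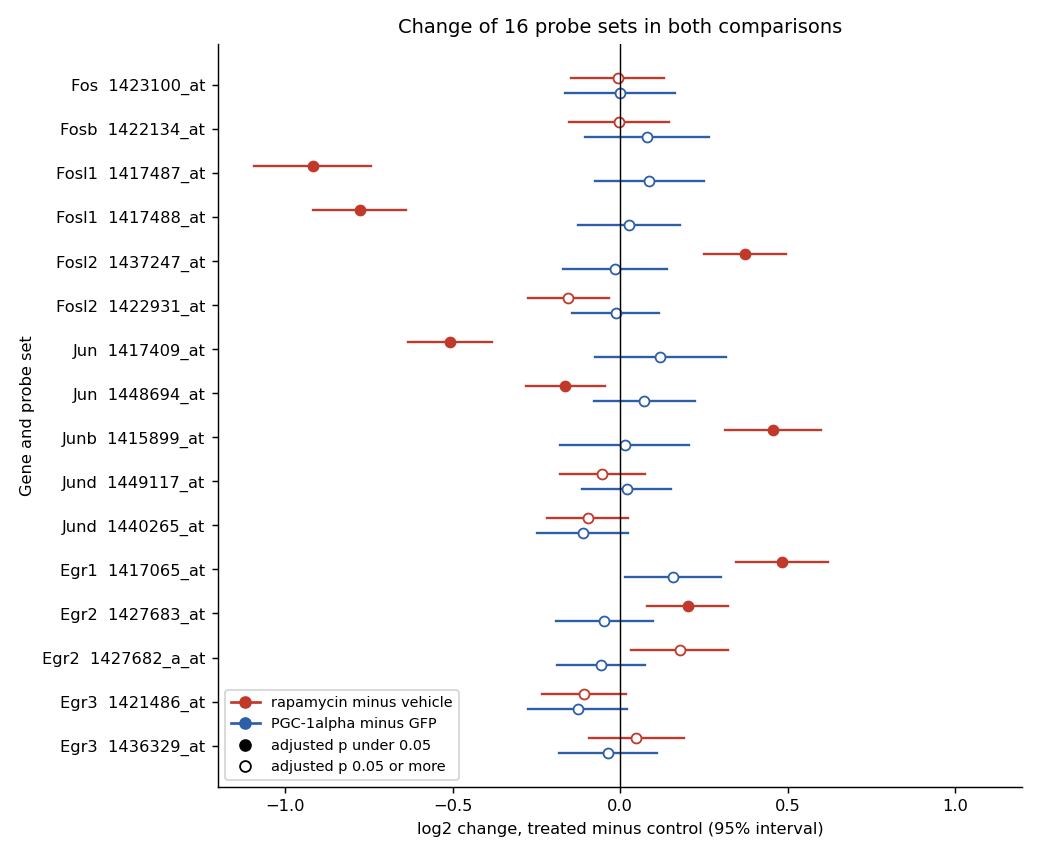
Log2 change with its 95% interval for each of the 16 probe sets, rapamycin minus vehicle in red and PGC-1alpha minus GFP in blue, filled where the adjusted p was under 0.05. Rapamycin gave 4 rises and 4 falls and PGC-1alpha none. With spike scaling the rapamycin changes moved down by 0.19 and gave 2 rises and 8 falls, against 1448 and 18556 of all 45037 probe sets.

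Differences between 2 probe sets of the same array do not depend on a single factor applied to that whole array. They can still depend on a normalization that varies with intensity, such as quantile normalization. These pairs were picked after their values had been seen, and they are given as a description. The level of 1 probe set against another has no meaning as an abundance, and only its shift between groups is read. Junb minus Jun was -0.47, -0.37 and -0.52 on the log2 scale with vehicle and 0.62, 0.58 and 0.35 with rapamycin. The difference was higher on all rapamycin arrays than on any vehicle array, and Junb gained 1.95-fold on the brighter Jun probe set. The second Jun probe set fell less (log2 change -0.16 against -0.51), so the gain of Junb on it was smaller. Fosl2 minus Fosl1, on the brighter probe sets, was 1.93, 2.07 and 2.05 with vehicle and 3.02, 3.42 and 3.48 with rapamycin, so that Fosl2 gained 2.44-fold on Fosl1. With GFP and PGC-1alpha the same differences overlapped. Junb minus Jun averaged -0.39 ± 0.06 with GFP and -0.50 ± 0.13 with PGC-1alpha, and Fosl2 minus Fosl1 averaged 0.87 ± 0.09 and 0.76 ± 0.12 (SD, n = 3).

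**Figure D3:**
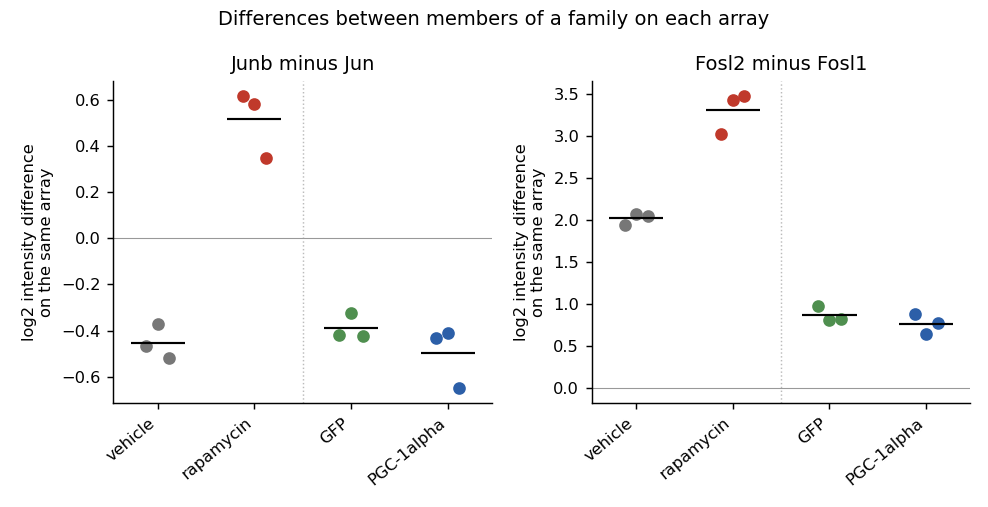
Log2 difference between 2 probe sets on the same array, Junb minus Jun and Fosl2 minus Fosl1, for each of the 12 arrays, with bars for group means. The rapamycin arrays lie above the vehicle arrays in both panels, by 0.97 and 1.29 in the mean, while the GFP and PGC-1alpha arrays overlap.

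PGC-1alpha, a coactivator that drives mitochondrial and respiratory genes, called none of the 16 probe sets against GFP. Of all probe sets, 0.997% were raised and 0.955% lowered, 1.95% in all, and of the genes 1.41% were raised and 0.594% lowered, so a count of 0 among 16 is near that background. At an unadjusted p under 0.05, limma counted 1 of the 16 (Egr1) and 11.6% of all probe sets. The groups did not overlap for 2 of the 16, Egr1 and the brighter Egr3 probe set, against 15.7% of all probe sets. The median change was 0.02 over the 10 genes and 0.01 over all genes.

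Egr1 read 295.0, 304.7 and 310.6 with GFP and 367.3, 330.6 and 318.7 with PGC-1alpha. All PGC-1alpha arrays were higher, with a log2 change of 0.16 and an interval from 0.02 to 0.30, but the adjusted p was 0.354. Egr3 read 286.3, 323.8 and 275.8 with GFP and 273.2, 269.4 and 266.7 with PGC-1alpha, lower on all 3 arrays, with a log2 change of -0.13 (adjusted p 0.524). Of the other genes that moved with rapamycin, Fosl1, Fosl2, Jun, Junb and Egr2 had intervals that spanned 0 here. Fosl1 read 515.5, 545.3 and 632.0 with GFP and 582.9, 612.1 and 596.6 with PGC-1alpha, which lay among the GFP values (interval -0.08 to 0.25). Fosl2, with 1012, 954.0 and 1112 against 1071, 952.0 and 1021, overlapped as well (interval -0.17 to 0.14). Junb read 373.6, 374.0 and 462.3 against 404.2, 438.7 and 374.0 (interval -0.18 to 0.20), and Fos 124.0, 119.4 and 140.4 against 121.5, 122.9 and 138.7 (interval -0.17 to 0.16). Neither gene stood apart between the viruses.

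Jun read 499.2, 468.6 and 619.6 with GFP and 544.9, 582.6 and 585.9 with PGC-1alpha. GFP replicate 3 was the highest of the 6 and the groups overlapped, with a log2 change of 0.12 and an interval from -0.08 to 0.32 (adjusted p 0.720). Without GFP replicate 3, the change in Jun was 0.24 (SE 0.06, adjusted p 0.038) and passed the threshold, the one member call made in this comparison by leaving out an array. Without that array 1957 of all probe sets were raised, against 449 with it. Under spike scaling no member probe set was called either, and the median of all probe sets moved by 0.17.

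The difference between the effects, rapamycin against vehicle minus PGC-1alpha against GFP, was tested in 1 model of all 12 arrays. It was higher with rapamycin for 3 member probe sets, against 8.70% of all, and lower for 3, against 12.0%, together 6 of 16 against 20.7%. The higher ones were Fosl2 (0.39, SE 0.09, adjusted p 0.0045), Junb (0.44, SE 0.12, adjusted p 0.0093) and Egr1 (0.33, SE 0.09, adjusted p 0.016). Both Fosl1 probe sets (-1.003 and -0.80, adjusted p 4.6e-06 and 7.1e-06) and the brighter Jun probe set (-0.63, SE 0.11, adjusted p 4.0e-04) were lower. Without PGC-1alpha replicate 3, the Egr1 difference was 0.28 and missed the threshold (adjusted p 0.053). Egr2 (0.25, adjusted p 0.052) and the second Jun probe set (-0.24, adjusted p 0.070) missed it with all arrays. Egr2 passed without GFP replicate 2, PGC-1alpha replicate 3 or rapamycin replicate 3 (adjusted p 0.016, 0.048 and 0.049), and the second Jun probe set without GFP replicate 3 or PGC-1alpha replicate 2 (0.013 and 0.037). With spike scaling none was higher and 7 were lower, and the Egr1 difference turned to -0.03. That scaling moved the median change of all probe sets by -0.19 with rapamycin and by 0.17 with PGC-1alpha. Every difference between the effects thus moved down by the same amount. No count over all probe sets is given here for the difference in that setting. The treatments also differ in virus, cell density and time line, and these cannot be told apart from the difference between rapamycin and PGC-1alpha.

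Genes around these factors were read from 5 lists of textbook members, each gene by its brightest probe set, 102 of 113 listed genes being measured. With rapamycin 28 of the 102 were raised and 25 lowered, against 11.3% and 18.0% of all genes, and with PGC-1alpha 1 and 2, against 1.41% and 0.594%. The lists, like the members, were chosen with earlier results of these data known. Rapamycin counts with spike scaling stand beside 1448 raised and 18556 lowered of all 45037 probe sets. Of 32 other immediate early genes, 12 were raised and 9 lowered with rapamycin, with a median change of -0.01, and with spike scaling 4 and 16. The largest rises were those of Ccn2 (1.15, SE 0.07, adjusted p 3.7e-07) and Ccn1 (0.85, SE 0.07, adjusted p 1.3e-06), which encode secreted matricellular proteins and are targets of YAP and SRF. Atf3, a stress-induced bZIP factor that pairs with Jun, fell (-0.56, SE 0.06, adjusted p 8.2e-06). With PGC-1alpha none of the 32 was called, the lowest p being those of Ccn2 (0.32, adjusted p 0.115) and Zfp36, which encodes an mRNA decay factor (0.20, adjusted p 0.147).

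Of 19 upstream factors and kinases, 3 were raised and 4 lowered with rapamycin, with a median of -0.01, and with spike scaling 1 and 7. Srf, which encodes the factor that binds the CArG box, had a log2 change of 0.00 on its brighter probe set (adjusted p 0.986), and its other probe set was lowered. Elk1, which encodes the ERK-driven partner of SRF, was at -0.01 (adjusted p 0.941). Elk3, a related ternary complex factor that can repress, rose (0.37, adjusted p 4.3e-04) in the main setting but not with spike scaling (0.19, adjusted p 0.066). Rps6ka5, which encodes the kinase MSK1 that acts on CREB, rose from a dim level (0.60, SE 0.10, adjusted p 7.6e-04). Map2k2, which encodes the kinase MEK2 above ERK, fell with rapamycin (-0.36, SE 0.07, adjusted p 0.0011) and rose with PGC-1alpha (0.36, SE 0.07, adjusted p 0.022), each on 1 of its 2 probe sets. Creb1, which encodes CREB, rose with rapamycin (0.26, adjusted p 0.0087) on 1 of its 6 probe sets, but not with spike scaling (0.07, adjusted p 0.507). It fell with PGC-1alpha (-0.39, SE 0.07, adjusted p 0.010) on 1 of its 6 probe sets, and not with spike scaling (-0.22, adjusted p 0.490).

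A list of other bZIP genes, many of whose products can pair with Fos or Jun proteins, held mainly genes of the ATF, Maf and Batf families. It also held Ddit3, Nfe2l1, Nfe2l2 and Nfil3, which belong to other bZIP families and were all among those lowered with rapamycin. Of 15 measured, 8 were lowered and 1 raised with rapamycin, with a median of -0.19 against -0.015 for all genes. With spike scaling 13 were lowered and 1 raised. Ddit3, which encodes the stress factor CHOP (-0.64, SE 0.06, adjusted p 3.1e-06), Atf5 (-0.61, SE 0.07, adjusted p 1.5e-05) and Atf4 (-0.56, SE 0.05, adjusted p 6.0e-06), the last a driver of amino acid synthesis genes known to depend on mTOR complex 1, fell most. Maf, a large Maf family factor, was the one that rose (0.47, SE 0.06, adjusted p 6.0e-05). With PGC-1alpha none of the 15 was called in the main setting, Atf5 (0.26, adjusted p 0.058) and Nfil3 (0.28, adjusted p 0.131) having the lowest p.

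Of 13 Egr corepressors and genes reported as Egr targets, 3 were raised and 1 lowered with rapamycin, with a median of 0.03, and with spike scaling 1 and 5. Nab1 (-0.11, adjusted p 0.185) and Nab2 (-0.003, adjusted p 0.984), the corepressors, did not pass the threshold on their brightest probe sets, and 1 of the 3 Nab1 probe sets was lowered. Thbs1, which encodes a matrix glycoprotein that restrains vessel growth, rose (0.64, SE 0.07, adjusted p 1.5e-05). Fgf2, a growth factor gene, rose from a dim level at the 28.1st percentile (0.31, adjusted p 0.002), although not with spike scaling (0.13, adjusted p 0.220). Vegfa, which encodes the vessel growth factor and is also a target of hypoxia factors, fell (-0.38, SE 0.08, adjusted p 0.0028). With PGC-1alpha none of the 13 was called, Tgfb1 (0.36, adjusted p 0.058) and Id1 (0.20, adjusted p 0.224) having the lowest p, and with spike scaling 1 was raised.

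Of 23 genes reported as AP-1 targets, 9 were raised and 3 lowered with rapamycin, with a median of 0.13, and with spike scaling 6 and 8, with a median of -0.06. The largest rise was that of the cytokine gene Il6 (1.60, SE 0.07, adjusted p 3.7e-08), followed by Ptgs2, which encodes cyclooxygenase 2 (0.88, SE 0.07, adjusted p 2.6e-06), and the chemokine gene Ccl2 (0.62, SE 0.06, adjusted p 3.5e-06). These 3 are also targets of NF-kB. Dnmt1, which encodes the maintenance DNA methyltransferase, fell (-0.59, SE 0.06, adjusted p 9.4e-06). With PGC-1alpha the one call was a fall of Cd44, which encodes a hyaluronan receptor (-0.48, SE 0.09, adjusted p 0.016), seen on 2 of its 4 probe sets and not with spike scaling (adjusted p 0.432).

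**Figure D4:**
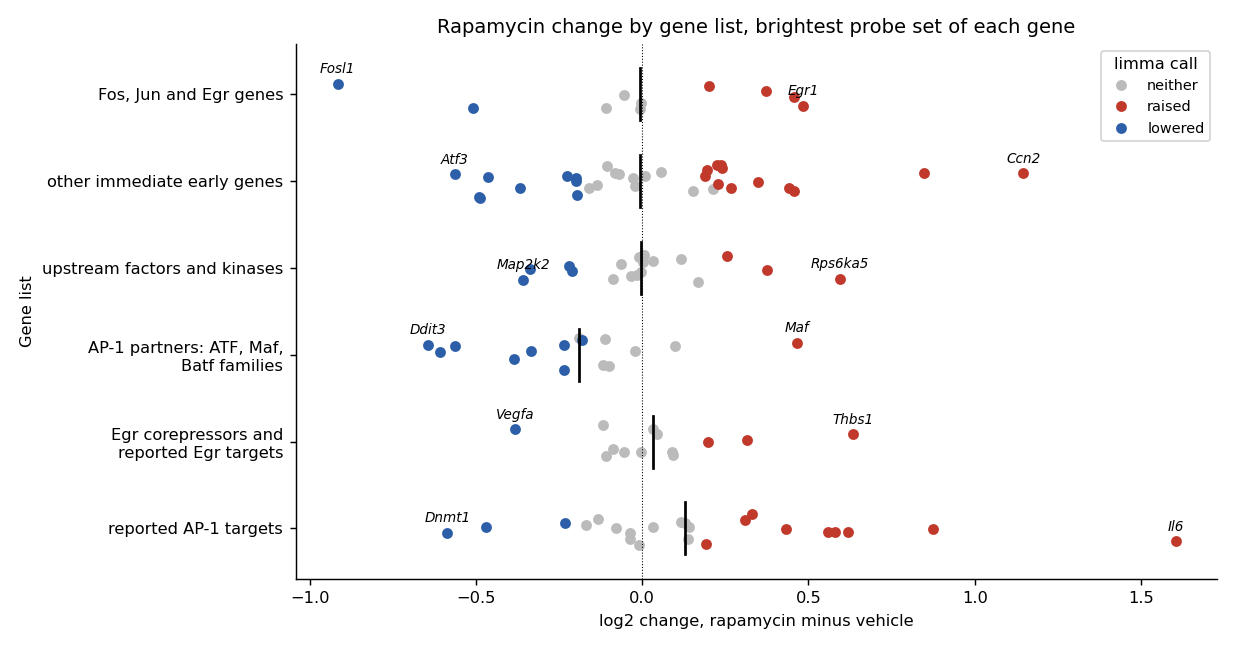
Log2 change with rapamycin of each gene by its brightest probe set, one line per list, with colours for the limma call and a bar at the median of each list. Members and lists spread to both sides of 0 in this scaling, the AP-1 partners have a median of -0.19, and with spike scaling all values move down by 0.19, so that the medians of the last 2 lists turn from 0.03 and 0.13 to -0.16 and -0.06.

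Over the 12 arrays, with each experiment centred on its own mean, the genes whose log2 intensity ran most like that of a member were found by Pearson correlation as a description. The arrays share the difference between rapamycin and vehicle and the scaling of each array. Fosl1 was nearest to Psd3 (r = 0.99), Jun to Pcgf5 (0.981), Fosl2 to Gnpda2 (0.99), Junb to Foxn3 (0.97), Egr1 to Relb (0.978) and Egr2 to Stmn1 (0.967). Among the members, the correlation was 0.88 between Fosl1 and Jun, 0.85 between Fosl2 and Junb and -0.85 between Fosl1 and Fosl2. Fos was at 0.42 or below with every other member.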

How the data were processed

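RNA of 12 samples was hybridised to Affymetrix MOE430 v2 arrays. The authors deposited 1 table per experiment of RMA intensity per probe set, with BioConductor 1.2 named in the submitters' processing notes. The linear scale was read from the values (9.299 to 21072.43), since no source used here states it. Here log2 intensities were tested with limma 3.58.1 in R 4.3.3 (lmFit, eBayes), separately in each experiment, with all 12 arrays for the difference between effects. Of 45101 probe sets, 64 controls were left out. Adjusted p-values are Benjamini-Hochberg over the 45037 others. Of these, 34945 carried 1 gene symbol, 932 several and 9160 none, and only those with 1 were named.

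Genes outside the families were named by rule: in each list, the called genes of largest change and the largest call in the opposite direction, or, with no call, those nearest to one, with Srf, Elk1, Nab1 and Nab2 always given. The members and lists were chosen with earlier results of these data known. Promoters came from RefSeq, GRCm38.p6. The statistics were tested on simulated data. The number of arrays limits the precision, and the design calls them biological triplicates. Replicate numbers are shared between groups, but same-numbered arrays deviated together at correlations of only -0.052 to 0.072 (rapamycin) and -0.133 to 0.231 (PGC-1alpha), so they were not treated as pairs. Alternatives were leaving out each array, a replicate block, spike scaling, quantile normalization over 12 arrays, leaving out dim probe sets, 1 fit over 12 arrays, an intensity trend, a pseudocount of 16 and the mean over probe sets.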

Additional observations from a re-analysis of the deposited data

How the results depend on the processing

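Scaling to the spike controls gave, with rapamycin, 2 raised and 8 lowered member probe sets, and 13 raised and 49 lowered among the other pathway genes. With PGC-1alpha it gave 2 raised and 0 lowered pathway genes. For the difference between effects it gave 0 higher and 7 lower members, with Egr1 at -0.032, and the differences of all probe sets moved down alike. Over all probe sets it gave 1448 raised and 18556 lowered with rapamycin and 296 and 29 with PGC-1alpha. Pathway genes raised with PGC-1alpha numbered 3 in 1 fit over 12 arrays, 2 with quantile normalization and 3 without dim probe sets, and 1 was lowered with a pseudocount of 16. All probe sets raised and lowered with PGC-1alpha numbered 807 and 678 in 1 fit over 12 arrays, and 295 were raised with the pseudocount. Leaving out 1 array at a time gave 3 to 4 raised and 3 to 4 lowered members with rapamycin, 0 to 1 raised and 0 lowered with PGC-1alpha, and 3 to 4 on each side for the difference. For the other pathway genes it gave 24 to 30 raised and 21 to 25 lowered with rapamycin, and 0 to 18 raised and 0 to 2 lowered with PGC-1alpha, the 18 without GFP replicate 3 and 0 without each other array. With PGC-1alpha the counts over all probe sets then ranged from 113 to 1957 raised and 166 to 880 lowered. With the replicate number as a block, 4 member probe sets were raised and 3 lowered with rapamycin, 0 and 0 with PGC-1alpha, and 3 and 3 for the difference, the lost one being the second Jun probe set (adjusted p 0.054). Over single members and settings, 641 values stayed on the same side of the threshold, 20 passed it only in the alternative and 16 lost it. The remaining 1, called in the main setting, turned in sign. Values uncalled in both settings stood among the 641 even where their sign changed. An example is the brighter Jund probe set with rapamycin, at -0.054 in the main setting and at most 0.016. The cause of these shifts was not tested. Probe sets near the bottom of the intensity range, such as those of Egr2 and the second of Egr3, limit what can be read.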
